A study of Homo sapiens with 24 samples.

Results

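The genes examined here encode the enzymes and regulators of cholesterol and fatty acid synthesis. The genes were listed by pathway membership, and the rule that lists them uses no measured value. The list was still chosen with earlier results of these data known. It names 34 genes, of which 33 had a row in the deposited count tables, and ACACA could not be matched by its Ensembl identifier. All 33 passed the filter on low counts in both batches, among 14348 genes tested in batch 1 and 14054 in batch 2, of 29794 genes in each table. The 33 comprise 18 enzymes of sterol synthesis, 3 genes of sterol transport and handling, and 8 enzymes of fatty acid and lipid synthesis. The other 4 are called regulators here. SREBF1 and SREBF2 encode the SREBP transcription factors, and SCAP and INSIG1 encode proteins that control those factors.

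RNA-seq was carried out on Flp-In T-REx 293 cells, a line derived from human embryonic kidney, in 24 libraries that form 9 groups in 2 batches. Each group carried a lentiviral cassette in which a doxycycline-inducible cytomegalovirus promoter drives GFP, with the miRNA hairpin inside the intron, and the empty vector is the same cassette with no hairpin. Cells of every group, the empty vectors included, were selected with geneticin at 1 mg/mL for 6 days and given doxycycline at 1 µg/mL for 7 days. Batch 1 has an empty vector, a miR-122 and a miR-1 group with 2 libraries each. Batch 2 has an empty vector group and one each for miR-155, miR-133a and the miRNAs miR-373, miR-372 and miR-302a, with 3 libraries a group. Replicates were transduced and maintained as separate cultures, and the miRNAs were expressed in a line that is not the tissue in which miR-122 (liver) or miR-1 (muscle) is abundant. The reference was always the empty vector of the same batch, so comparisons within a batch share those control libraries.

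Cholesterol is built from acetyl-CoA through mevalonate, the isoprenoid farnesyl diphosphate, squalene and lanosterol. Fatty acids are built from the same acetyl-CoA, then lengthened and desaturated. Most of these genes are transcribed under SREBP factors, which are held in the endoplasmic reticulum with SCAP and INSIG proteins when sterols are plentiful and are cut and sent to the nucleus when sterols are scarce. In liver, miR-122 is the most abundant miRNA, and blocking it in animals is known to lower plasma cholesterol and transcripts of sterol synthesis enzymes. A miRNA represses a transcript mainly through pairing of its seed, bases 2 to 8, with a site in the 3'UTR.

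The mature sequences are shown because the site searches below rest on the seeds, which are in capitals (RefSeq, GRCh38.p14). The seeds of miR-1 and miR-122 differ at 1 base, A5G, counted from 1 at the 5' end with the miR-1 base first. The last 3 miRNAs shown have the same seed.
miR-1: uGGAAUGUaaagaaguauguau
miR-122: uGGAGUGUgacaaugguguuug
miR-133a: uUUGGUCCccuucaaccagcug
miR-155: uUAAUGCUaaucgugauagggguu
miR-302a: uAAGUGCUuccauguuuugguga
miR-372: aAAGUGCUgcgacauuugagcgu
miR-373: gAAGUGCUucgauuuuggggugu

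Sites were searched in the longest annotated 3'UTR of each gene (GENCODE v44lift37 on GRCh37). An 8mer pairs with bases 2 to 8 and has an A opposite base 1, a 7mer-m8 lacks that A, and a 7mer-A1 pairs with bases 2 to 7 and has the A. A site of any of these kinds was found in 6 of the 33 genes for miR-122 and in 8 for miR-1. For miR-155 it was 5 genes, for miR-133a 7, and for the seed that the other 3 miRNAs share 7. An 8mer was found for miR-1 in ELOVL6, for miR-133a in ACAT2 and FADS2, for miR-155 in HMGCS1, and for the shared seed in SC5D, which holds 2. No member held an 8mer or a 7mer-m8 for miR-122. The SC5D 3'UTR of this annotation, at 5898 bases, is longer than the exon length of 2704 bases in the deposited table, so its sites may lie outside the counted transcript model. Sites of members whose levels are described below are printed with the site in capitals.
HMGCS1, 8mer site to miR-155, chr5:43289548-43289577, minus strand: tactggcacagAGCATTAAtcatacacctt
ELOVL6, 8mer site to miR-1, chr4:110969679-110969708, minus strand: gctgccagttaACATTCCAgaaaaacttgg
ACAT2, 8mer site to miR-133a, chr6:160199925-160199954, plus strand: gtgaaatcagaGGACCAAAgtacagatgga
FADS2, 8mer site to miR-133a, chr11:61633884-61633913, plus strand: ctgtgaccttgGGACCAAAgggggagtccc
FADS1, 7mer-A1 site to miR-122, chr11:61567606-61567634, minus strand: attggcttcctCACTCCAaaataggtgct
ELOVL6, 7mer-m8 site to miR-302a, chr4:110970020-110970048, minus strand: gatgcttccaaAGCACTTtcattttggta
ELOVL6, 7mer-m8 site to miR-302a, chr4:110967326-110967354, minus strand: caatgcttagtAGCACTTgagactttatt

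The libraries of batch 1 held 20153452 to 21595191 reads in exons and those of batch 2 held 13047400 to 35040778, of which the 33 genes took 0.504% to 0.634%. The expressed miRNA was checked through 10 known targets, in 14 pairs of a target and a miRNA, and in all 14 the target fell, with log2 fold changes from -1.99 to -0.16 (edgeR's quasi-likelihood test with Benjamini-Hochberg adjustment). The kidney line was checked through VIM, at 908 to 1310 CPM (reads scaled to a common library size), KRT8 at 176 to 297 CPM and KRT18 at 79.6 to 121 CPM, with PAX2, a kidney gene, at 5.28 to 13.8 CPM and NEFM, a neurofilament gene, at 1.26 to 4.42 CPM. Of 9 hepatocyte markers, between 3 and 7 were at 0 in each library, the markers summed to 0.425 to 2.47 CPM, and ALB, the albumin gene, reached at most 0.350 CPM. Levels below are CPM from library sizes scaled by TMM, the fold changes are on the log2 scale with their standard error (SE), and a gene is said to have risen or fallen where the adjusted p over all genes tested is below 0.05.

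In the empty vector libraries the pathway was expressed throughout. Levels are compared between genes per kilobase of exon only. ACLY, which makes cytosolic acetyl-CoA from citrate, stood at 156 ± 3.9 CPM per kilobase in batch 1 (SD, n = 2) and 144 ± 9.9 in batch 2 (SD, n = 3). SCD, the stearoyl-CoA desaturase, stood at 148 ± 1.3 and 129 ± 2.4, and FASN, which builds palmitate, at 147 ± 7.5 and 137 ± 22.1. These 3 enzymes of fatty acid synthesis were the highest of the 33 in both batches, and ACLY lay above both others in batch 1, whereas the FASN libraries of batch 2 overlapped those of ACLY and SCD. FDPS, which makes farnesyl diphosphate, came next at 110.2 ± 3.4 and 104 ± 3.3, apart from the genes above and below it in both batches. INSIG1, HMGCS1 and FDFT1 followed, with 67.1 ± 0.3, 67.1 ± 0.37 and 63.4 ± 0.29 CPM per kilobase in batch 1 and overlapping ranges in batch 2. Among the regulators, SREBF2 was at 43.8 ± 0.75 and 38.8 ± 2.8, and SREBF1 at 12.7 ± 0.4 and 12.5 ± 0.94, with no overlap between them. ACSS2, an acetyl-CoA synthetase, was the lowest in both batches at 5.33 ± 0.094 and 5.17 ± 0.41, and its range met that of HSD17B7 in batch 2.

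**Figure D1:**
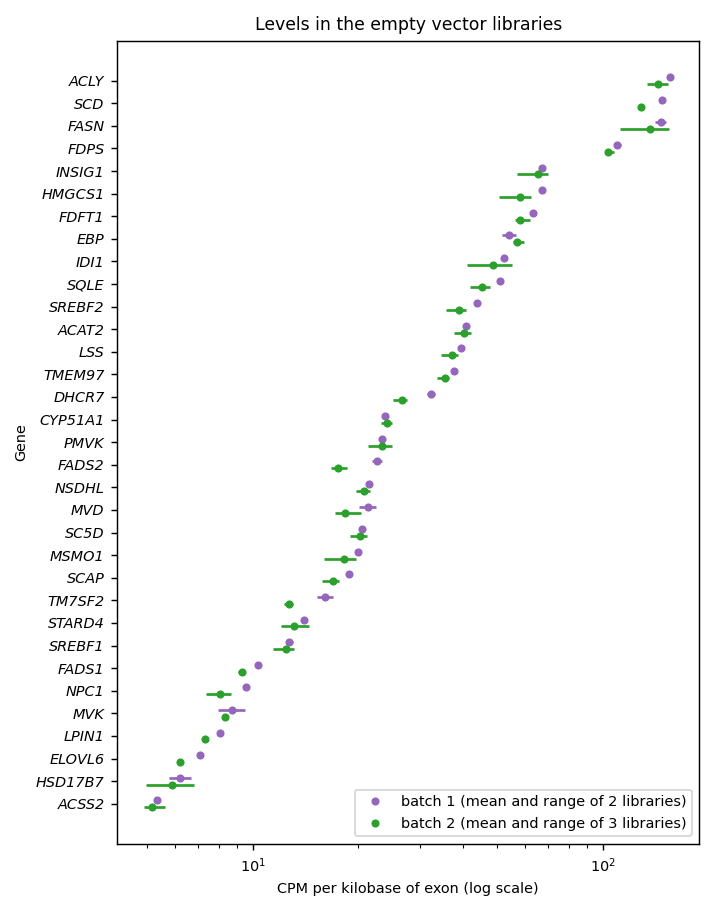
Levels of the 33 genes in the empty vector libraries, in CPM per kilobase of exon on a log axis. Points are means and bars run from the lowest to the highest library, for 2 libraries of batch 1 and 3 of batch 2. ACLY, SCD and FASN stand highest and ACSS2 lowest in both batches.

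The first comparison was miR-122 against the empty vector, since miR-122 is tied to lipid synthesis in liver. Of the 33 genes, 6 fell (18.2%) and 0 rose, where 4.06% of all genes tested fell and 1.86% rose. The 6 were 4 enzymes of sterol synthesis (HMGCS1, ACAT2, IDI1 and SQLE) and the desaturases FADS1 and FADS2. The changes were small, and the median over all 33 was -0.023, beside a median of 0.00057 over all genes tested. DESeq2's Wald test also called 0 members higher, and 9 members had an unadjusted p below 0.05 in edgeR's test. Without miR-122 replicate 1, 3 members fell, and without miR-122 replicate 2, 1 fell (FADS1), while the number of all genes that passed in either direction went from 849 to 319 and 423. With an empty vector library left out, 6 or 7 fell, and without empty vector replicate 2, 1 rose. In these fits 1 group holds a single library, whose spread is assumed to be that of the others.

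FADS1, the delta-5 desaturase of polyunsaturated fatty acid synthesis, was at 64.2 and 71.4 CPM in the 2 miR-122 libraries and 85.4 and 88.2 CPM in the 2 empty vector libraries (log2 fold change -0.36 ± 0.053 (SE), adjusted p = 0.000164). FADS2, the delta-6 desaturase, was at 131 and 123 CPM against 146 and 156 CPM (log2 fold change -0.25 ± 0.050 (SE), adjusted p = 0.00384). For both desaturases each miR-122 library lay below each empty vector library, and the call of FADS2 was lost without miR-122 replicate 2 (adjusted p = 0.131). FADS1 holds 2 7mer-A1 sites, 1 of which is printed above, and FADS2 holds no site for miR-122. Their exons overlap other genes on the same strand, MIR1908 for FADS1 and FEN1 for FADS2, so reads there may be shared.

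HMGCS1, the cytosolic HMG-CoA synthase, was at 221 and 209.9 CPM with miR-122 against 251 and 249 CPM in the empty vector (log2 fold change -0.21 ± 0.042 (SE), adjusted p = 0.00252). ACAT2, the cytosolic thiolase that joins acetyl-CoA units, was at 125 and 125 CPM against 141 and 147 CPM (log2 fold change -0.21 ± 0.044 (SE), adjusted p = 0.00596). These are the opening steps of the pathway, and the groups did not overlap for either. IDI1, which isomerises isopentenyl diphosphate, was at 141 and 137 CPM against 156 and 154.8 CPM (log2 fold change -0.16 ± 0.042 (SE), adjusted p = 0.0209). SQLE, squalene epoxidase, was at 151 and 143 CPM against 162 and 165 CPM (log2 fold change -0.15 ± 0.043 (SE), adjusted p = 0.0392). ACAT2, IDI1 and SQLE each lost the call without either miR-122 library (for ACAT2, adjusted p = 0.0959 without replicate 1 and 0.0868 without replicate 2), and HMGCS1 lost it without replicate 2 (adjusted p = 0.106). Those of IDI1 and SQLE were also lost with DESeq2's Wald test (adjusted p = 0.0885 and 0.156), and that of SQLE with only the 2 groups in the fit (adjusted p = 0.0736). Pseudogenes named after IDI1 are annotated, as are others for FDPS, CYP51A1, HSD17B7, TMEM97 and SCD. Reads that match both a gene and its pseudogene may be lost or misplaced. None of these 4 holds a site for miR-122 in its 3'UTR or an 8mer in its longest coding sequence. Shorter matches in coding sequences were not counted.

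The 4 regulators did not pass the test with miR-122. SREBF1 was at 71.7 and 73.3 CPM against 63.6 and 66.5 CPM (log2 fold change 0.16 ± 0.054 (SE), adjusted p = 0.106), and the groups did not overlap. Without empty vector replicate 2 it passed, at 0.19 with an adjusted p of 0.0338. SREBF2 (0.040 ± 0.039), SCAP (0.044 ± 0.046) and INSIG1 (0.016 ± 0.042) had log2 fold changes within 0.05 of 0. For SREBF2 and SCAP the groups did not overlap either. In bulk RNA, fewer cells that express a gene and less RNA per cell cannot be told apart. The other members that hold a 7mer-A1 for miR-122 (HSD17B7, SC5D, NPC1, FASN and LPIN1) did not pass, and ACLY, which holds a match in its coding sequence, had -0.068 ± 0.038.

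**Figure D2:**
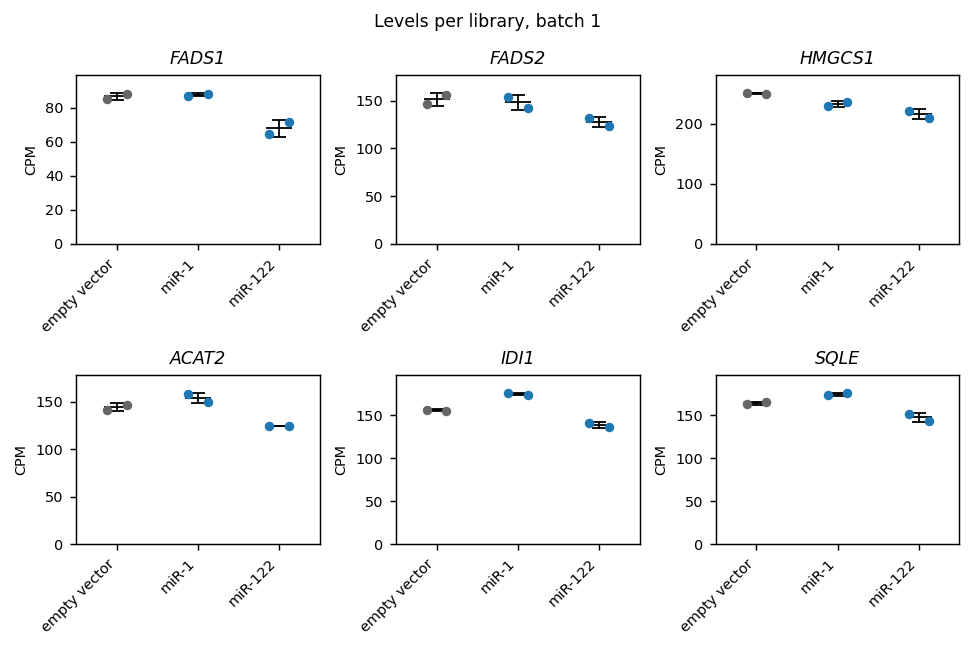
Levels per library of the 6 genes that fell with miR-122, in CPM, with 2 libraries a group for the empty vector of batch 1, miR-122 and miR-1. Points are libraries, and lines with bars are the mean ± SD. In each panel both miR-122 points lie below both empty vector points.

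With miR-1, 8 of the 33 genes rose (24.2%) and 1 fell (3.03%), where 10.8% of all genes tested rose and 13.7% fell. The 8 that rose came from every branch of the list, with 4 sterol enzymes, INSIG1, STARD4, ACLY and LPIN1. The 1 that fell was ELOVL6, the member with an 8mer for miR-1. The log2 fold change was above 0 for 25 of the 33, with a median of 0.051, beside a median of -0.00011 over all genes tested. The 33 genes together took 0.634% and 0.627% of the reads of the miR-1 libraries, 0.598% and 0.594% in the empty vector, and 0.575% and 0.574% with miR-122. Without miR-1 replicate 1, 4 members rose and 0 fell, and without empty vector replicate 2, 0 fell. DESeq2's Wald test called 5 higher and 0 lower, and 16 members had an unadjusted p below 0.05 in edgeR's test.

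TM7SF2, a sterol C14 reductase, was at 32.1 and 31.8 CPM with miR-1 and 24.1 and 26.8 CPM in the empty vector (log2 fold change 0.33 ± 0.069 (SE), adjusted p = 0.00175). Its exons overlap VPS51 on the same strand. INSIG1, which retains the SCAP and SREBP complex in the endoplasmic reticulum, was at 255 and 245 CPM against 211 and 212 CPM (log2 fold change 0.24 ± 0.041 (SE), adjusted p = 0.000290). ACLY was at 829.8 and 848 CPM against 725 and 699.8 CPM (log2 fold change 0.24 ± 0.038 (SE), adjusted p = 0.000138). The miR-1 libraries were above the empty vector libraries for all 3 genes, with no overlap.

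FDFT1, squalene synthase, was at 311 and 301 CPM with miR-1 against 268 and 269 CPM (log2 fold change 0.19 ± 0.039 (SE), adjusted p = 0.00162). STARD4, a carrier of cholesterol through the cytosol, was at 86.7 and 88.9 CPM against 79.5 and 76.1 CPM (log2 fold change 0.18 ± 0.047 (SE), adjusted p = 0.0110) and holds a 7mer-A1 for miR-1. FDFT1 lost its call without miR-1 replicate 1 (adjusted p = 0.0526), and STARD4 lost its call without miR-1 replicate 2 (adjusted p = 0.0906) and with DESeq2's Wald test (adjusted p = 0.0586). The other 3 that rose, named after their values were seen, were LPIN1, a phosphatidate phosphatase (0.17 ± 0.053), EBP, the sterol isomerase (0.17 ± 0.052), and IDI1 (0.17 ± 0.041).

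ELOVL6, which lengthens palmitate to stearate, was at 41.5 and 44.6 CPM with miR-1 against 48.6 and 49.2 CPM (log2 fold change -0.19 ± 0.057 (SE), adjusted p = 0.0223). Both miR-1 libraries were below both empty vector libraries. The call was lost without miR-1 replicate 1 (adjusted p = 0.260), without empty vector replicate 2 (adjusted p = 0.0593) and with DESeq2's Wald test (adjusted p = 0.154). SREBF1 was at 74.4 and 67.6 CPM against 63.6 and 66.5 CPM (log2 fold change 0.13 ± 0.054 (SE), adjusted p = 0.0983), and it passed without miR-1 replicate 2 or without empty vector replicate 2 (adjusted p = 0.0455 and 0.0464). SREBF2 (0.049 ± 0.039) and SCAP (0.024 ± 0.046) did not pass.

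The miR-122 and miR-1 libraries were then set against each other. The difference holds no control library, though the empty vector libraries enter the fit's filter, scaling and spread. Of the 33 genes, 14 were lower with miR-122 than with miR-1 (42.4%) and 1 was higher (3.03%), where 15.2% of all genes tested were lower and 16% higher. The median over the 33 was -0.10, beside 0.0017 over all genes tested. The 14 comprised 7 of the 18 sterol enzymes, 6 of the 8 enzymes of fatty acid and lipid synthesis, and INSIG1. With only the 2 groups in the fit, 16 members were lower and 1 higher. All genes that passed in either direction then went from 4481 to 5273. Without miR-1 replicate 1, or without miR-122 replicate 2, 9 members passed in place of 15.

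TM7SF2 was at 24.0 and 24.6 CPM with miR-122 and 32.1 and 31.8 CPM with miR-1 (log2 fold change -0.40 ± 0.070 (SE), adjusted p = 0.000236). FADS1 was at 64.2 and 71.4 CPM with miR-122 and 86.9 and 88.3 CPM with miR-1 (log2 fold change -0.37 ± 0.053 (SE), adjusted p = 3e-05). IDI1 was at 141 and 137 CPM against 176 and 174 CPM (log2 fold change -0.33 ± 0.042 (SE), adjusted p = 5.4e-06). No library of one group reached the range of the other for these 3.

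ACLY was at 670.5 and 688 CPM with miR-122, below each miR-1 library (log2 fold change -0.30 ± 0.038 (SE), adjusted p = 4.8e-06). ACAT2 was at 125 and 125 CPM against 158 and 150.1 CPM (log2 fold change -0.30 ± 0.044 (SE), adjusted p = 3.5e-05), and SQLE at 151 and 143 CPM against 173 and 175 CPM (log2 fold change -0.24 ± 0.042 (SE), adjusted p = 0.000226). FADS1, IDI1, ACAT2 and SQLE also fell against the empty vector with miR-122, whereas TM7SF2, IDI1 and ACLY rose against it with miR-1. HMGCS1, named here after its values were seen, fell with miR-122 but did not pass between miR-122 and miR-1. With miR-1 it had -0.11 ± 0.041 (SE) against the empty vector (adjusted p = 0.0658). The single gene that was higher with miR-122, named after its values were seen, was ELOVL6 (log2 fold change 0.16 ± 0.057 (SE), adjusted p = 0.0438), and it did not pass with any one of the 4 libraries left out or with DESeq2's Wald test. SREBF1, SREBF2 and SCAP did not pass, with 95% intervals of -0.083 to 0.14, -0.092 to 0.073 and -0.075 to 0.11.

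**Figure D3:**
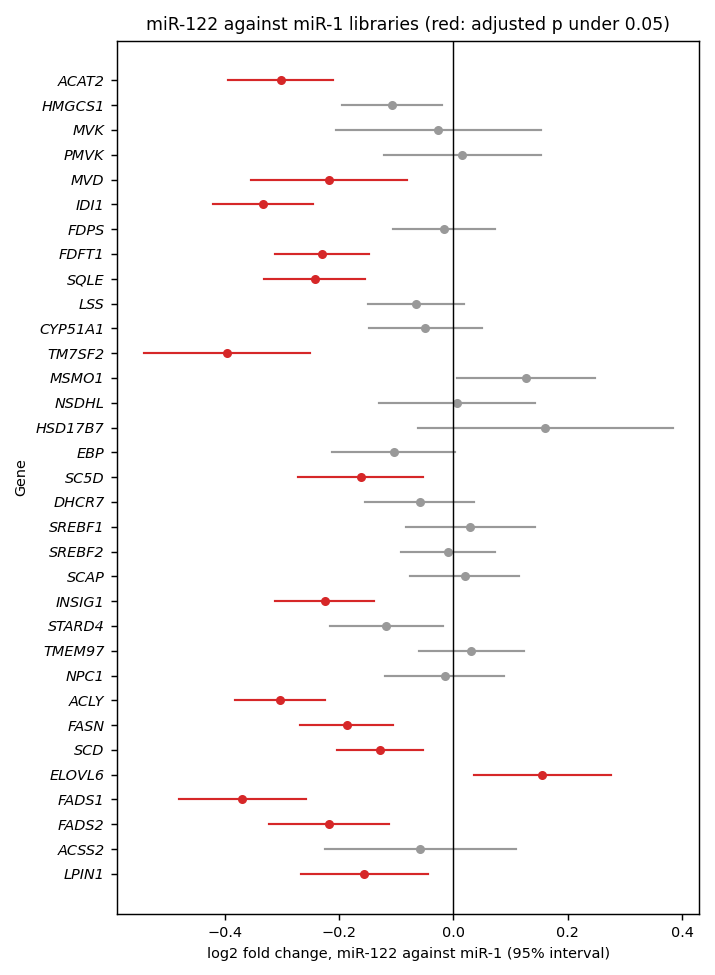
Log2 fold change of each of the 33 genes in miR-122 libraries against miR-1 libraries (n = 2 each), in pathway order from ACAT2 at the top to LPIN1 at the bottom. Points are estimates, lines 95% intervals from edgeR's quasi-likelihood test, and red marks an adjusted p below 0.05. Of the 15 red genes, 14 lie left of 0 and ELOVL6 lies right of it.

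In batch 2 the level of several members moved with the replicate number across groups. HMGCS1, STARD4 and LPIN1 were lowest in replicate 2 of all 6 groups, and INSIG1 and SREBF2 were highest in replicate 3 of all 6. These members were named after their values were seen, and the share of all genes with such an order was not computed. What the replicate number stands for is not stated in the labels. Replicate 2 of miR-155, miR-302a and miR-372 stood apart from the other libraries of its group, with a chi-square divided by its degrees of freedom over all genes of 17.8 and 20.2 against 2.38 between the other 2 libraries for miR-155, 15.2 and 15.7 against 3.61 for miR-302a, and 16.6 and 33.6 against 6.71 for miR-372. Without that library 1 member fell and 1 rose with miR-155, 2 fell and 3 rose with miR-302a, and 0 fell and 3 rose with miR-372. Smaller gaps set apart miR-133a replicate 2 (5.87 and 5.69 against 2.45) and empty vector replicate 1 (8.13 and 4.95 against 2.99). The same held for miR-373 replicate 3 (8.25 and 12.6 against 5.80). The statistic also grows with read depth, which was highest in miR-373 replicate 3 and miR-372 replicate 3.

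With miR-155, 1 of the 33 genes fell (3.03%) and 0 rose, where 4.81% of all genes tested fell and 2.82% rose. The 1 was HMGCS1, the member with an 8mer for miR-155, which also holds a 7mer-A1. HMGCS1 was at 132.9, 119 and 151 CPM in the 3 miR-155 libraries and 232, 189 and 226 CPM in the 3 empty vector libraries (log2 fold change -0.68 ± 0.12 (SE), adjusted p = 0.00138). All 3 miR-155 libraries were below the lowest empty vector library, and the fall was called with each library left out in turn. It was the largest change of a member in any of the comparisons with an empty vector. Across the 33, 24 values were above 0 with a median of 0.077, beside 0.0057 over all genes tested. Of the 18 sterol enzymes, 15 had a value above 0 with a median of 0.18, and none of these passed.

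The members with a 7mer-m8 for miR-155 did not pass, and these are NPC1, the lysosomal cholesterol transporter (-0.082 ± 0.092), ELOVL6 (0.015 ± 0.080) and LPIN1 (0.046 ± 0.11). The regulators did not pass either, at 0.13 ± 0.090 for SREBF1, -0.11 ± 0.11 for SREBF2, 0.031 ± 0.076 for SCAP and 0.044 ± 0.15 for INSIG1. The 9 hepatocyte markers summed to 0.425 to 0.918 CPM with miR-155, below the 1.05 to 1.54 CPM of the empty vector, and their part in these values was not tested. Few reads make up these sums. CYP3A4 had 2, 2 and 0 reads with miR-155 and 6, 6 and 10 in the empty vector, and CYP2E1 had 4, 8 and 3 against 8, 4 and 5. DESeq2's Wald test called 1 member higher, as did the fits without miR-155 replicate 2 and without empty vector replicate 1, and 9 members had an unadjusted p below 0.05 in edgeR's test.

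With miR-133a, 1 of the 33 genes fell (3.03%) and 0 rose, where 3.97% of all genes tested fell and 1.37% rose. The 1 was SQLE, which holds a 7mer-m8 for miR-133a. SQLE was at 90.4, 96.1 and 99.9 CPM with miR-133a and 153, 134 and 149 CPM in the empty vector (log2 fold change -0.61 ± 0.088 (SE), adjusted p = 0.000205). The groups did not overlap, and the fall was called with each library left out in turn. The median over the 33 was 0.12, beside 0.00038 over all genes tested, and 15 of the 18 sterol enzymes were above 0 with a median of 0.18.

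ACAT2, with an 8mer for miR-133a, was at 108, 113 and 98.5 CPM against 149, 132.7 and 144 CPM. Each miR-133a library was below each empty vector library, and the difference did not pass (log2 fold change -0.41 ± 0.15 (SE), adjusted p = 0.116). It passed with only the 2 groups in the fit (adjusted p = 5.0e-04) and with no filter on low counts (adjusted p = 0.0054). It also passed with the replicate number as a block (adjusted p = 0.0226), although the numbers were not taken to pair these groups. FADS2, the other member with an 8mer, was at 112, 109 and 117 CPM against 111, 124 and 116 CPM and overlapped it (log2 fold change -0.059 ± 0.078 (SE), adjusted p = 0.714).

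INSIG1 was at 259.7, 267 and 270.0 CPM with miR-133a against 216, 179.8 and 219.8 CPM (log2 fold change 0.37 ± 0.15 (SE), adjusted p = 0.159). INSIG1 did not pass, although the groups did not overlap. It passed with only the 2 groups in the fit (adjusted p = 0.00271) and with no filter (adjusted p = 0.0192). With the replicate number as a block it passed too (adjusted p = 0.0263), although the numbers were not taken to pair these groups. SREBF2, with a 7mer-m8 for miR-133a, had -0.022 ± 0.11, SREBF1 0.12 ± 0.090 and SCAP -0.042 ± 0.076. With only the 2 groups in the fit, 3 members fell and 7 rose, while all genes that passed in either direction went from 750 of 14054 to 2349 of 13581. DESeq2's Wald test called 2 higher, and 13 members had an unadjusted p below 0.05 in edgeR's test. Without empty vector replicate 1, 1 member rose. The 9 hepatocyte markers summed to 1.97 to 2.47 CPM with miR-133a and 1.05 to 1.54 CPM in the empty vector of the batch, and their part in these values was not tested. These sums too rest on few reads, with CYP3A4 at 11, 15 and 19 reads against 6, 6 and 10.

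When miR-155 was compared directly with miR-133a, 1 of the 33 genes was lower (3.03%) and 3 were higher (9.09%), where 8.14% of all genes tested were lower and 8.61% higher. HMGCS1 was lower with miR-155, at 132.9, 119 and 151 CPM against 273, 238 and 276 CPM (log2 fold change -0.97 ± 0.12 (SE), adjusted p = 1.5e-05). SQLE was higher with miR-155, at 156, 163 and 172 CPM against 90.4, 96.1 and 99.9 CPM (log2 fold change 0.78 ± 0.088 (SE), adjusted p = 4.5e-06). The 3 libraries of each group stood apart from those of the other for both genes. TM7SF2 was at 20.0, 26.9 and 22.4 CPM with miR-155 against 15.1, 16.1 and 15.7 CPM with miR-133a (log2 fold change 0.56 ± 0.11 (SE), adjusted p = 0.00138). ACAT2 was at 148, 184 and 134 CPM against 108, 113 and 98.5 CPM (log2 fold change 0.54 ± 0.15 (SE), adjusted p = 0.0156), and its call was lost without miR-133a replicate 1, miR-133a replicate 3 or miR-155 replicate 2 (adjusted p = 0.0502, 0.0765 and 0.0852). The replicate numbers were taken to pair the libraries of these 2 groups because same-numbered libraries deviated together, not from the labels. With the replicate as a block 3 members were lower and 4 higher.

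**Figure D4:**
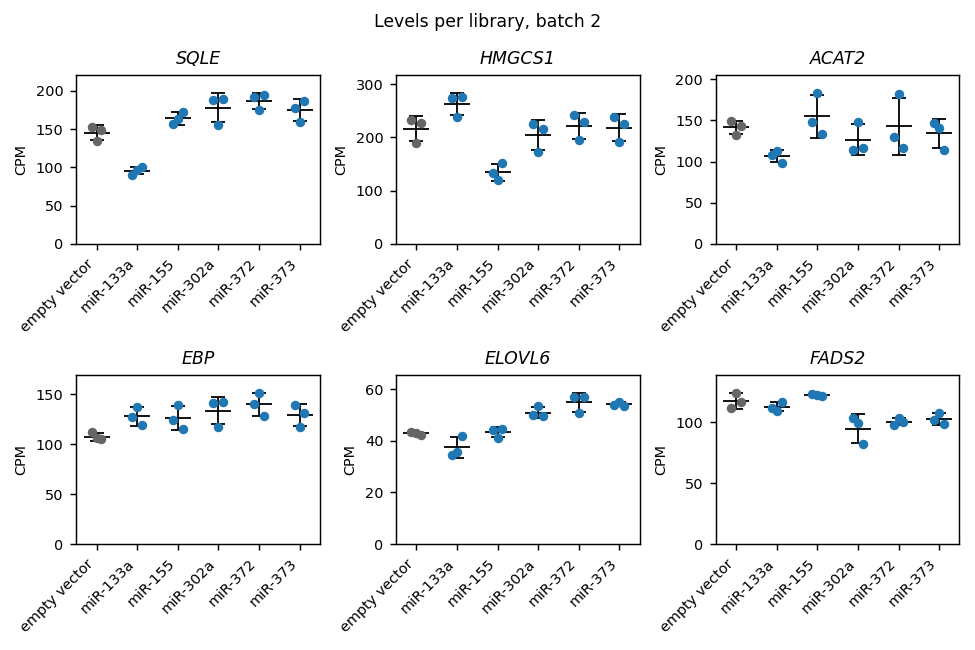
Levels per library in batch 2 of SQLE, HMGCS1, ACAT2, EBP, ELOVL6 and FADS2, in CPM, for 3 libraries in each of 6 groups. Points are libraries, and lines with bars are the mean ± SD. SQLE is lowest with miR-133a and HMGCS1 lowest with miR-155.

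The 3 miRNAs with the shared seed were compared with the same 3 empty vector libraries, so their results are not independent of each other. With miR-302a, 1 of the 33 genes fell (3.03%) and 2 rose (6.06%), where 4.85% of all genes tested fell and 3.02% rose. With miR-372, 0 fell and 4 rose (12.1%), where 6.56% of all fell and 4.82% rose. With miR-373, 0 fell and 1 rose (3.03%), where 3.3% of all fell and 1.83% rose. The medians over the 33 were 0.016, 0.040 and -0.024, beside -0.0010, 0.0033 and 0.0030 over all genes tested. In edgeR's test 7, 10 and 5 members had an unadjusted p below 0.05, and DESeq2's Wald test also called 0 members lower with miR-372 and with miR-373.

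SQLE was at 188, 156 and 190.0 CPM with miR-302a, 192, 174 and 194 CPM with miR-372 and 178, 159 and 187 CPM with miR-373, against 153, 134 and 149 CPM in the empty vector. It rose with miR-302a (log2 fold change 0.29 ± 0.087 (SE), adjusted p = 0.0460) and miR-372 (log2 fold change 0.36 ± 0.087 (SE), adjusted p = 0.0104), and had 0.27 ± 0.087 with miR-373 (adjusted p = 0.0875). Each library of the 3 miRNAs was above each empty vector library. EBP was at 141, 117 and 142 CPM, 140.0, 151 and 128 CPM and 139, 117 and 131 CPM, against 112, 106 and 105 CPM. It rose with miR-302a (log2 fold change 0.31 ± 0.094 (SE), adjusted p = 0.0487) and miR-372 (log2 fold change 0.38 ± 0.094 (SE), adjusted p = 0.0133), and again no library overlapped the empty vector. A gene without a symbol overlaps EBP exons on the same strand. LSS, lanosterol synthase, rose with miR-372, at 245, 223 and 243 CPM against 186, 207 and 204 CPM (log2 fold change 0.25 ± 0.075 (SE), adjusted p = 0.0363).

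ELOVL6 was at 49.8, 53.4 and 49.5 CPM with miR-302a, 56.8, 50.6 and 57.1 CPM with miR-372 and 54.0, 55.0 and 53.5 CPM with miR-373, against 43.6, 42.9 and 42.2 CPM in the empty vector. It rose with miR-372 (log2 fold change 0.36 ± 0.079 (SE), adjusted p = 0.00651) and miR-373 (log2 fold change 0.34 ± 0.079 (SE), adjusted p = 0.0166), and had 0.25 ± 0.080 with miR-302a (adjusted p = 0.0635). All 9 libraries were above the 3 empty vector libraries, and ELOVL6 holds the 2 7mer-m8 sites for this seed printed above. FADS2 was at 104, 99.0 and 81.6 CPM, 97.4, 103 and 99.9 CPM and 101, 108 and 98.1 CPM, against 111, 124 and 116 CPM. It fell with miR-302a (log2 fold change -0.31 ± 0.078 (SE), adjusted p = 0.0193) and did not pass with miR-372 (-0.23 ± 0.078) or miR-373 (-0.20 ± 0.078), and it holds no site for the seed. All 9 libraries lay below the 3 of the empty vector.

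SC5D, the lathosterol desaturase with 2 8mers for the shared seed, was at 60.7, 65.7 and 62.6 CPM with miR-302a, 65.4, 69.0 and 58.2 CPM with miR-372 and 67.0, 60.9 and 57.5 CPM with miR-373, against 57.4, 51.2 and 55.5 CPM in the empty vector. It did not pass with any of them (0.21 ± 0.10, 0.23 ± 0.10 and 0.17 ± 0.10), and all 9 values lay above the 3 of the empty vector. The regulators did not pass, with log2 fold changes from -0.10 to -0.055 for SREBF1, from 0.017 to 0.047 for SREBF2, from -0.083 to -0.028 for SCAP and from -0.00089 to 0.13 for INSIG1.

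The calls of these 3 miRNAs rested on single libraries in part. With miR-302a, leaving out any one of the 3 empty vector libraries, miR-302a replicate 1 or miR-302a replicate 3 left 0 members that rose. The count that fell was 0 without empty vector replicates 2 or 3 or miR-302a replicate 3, and 2 without miR-302a replicate 2. With miR-373, leaving out any one library of either group left 0 members that rose, with adjusted p of ELOVL6 between 0.0502 and 0.069. With miR-372 the count that rose was 1 without empty vector replicate 2 and 2 without empty vector replicate 3. LSS lost its call in the fits without empty vector replicate 1, 2 or 3, or miR-372 replicate 1 or 3, EBP in those without empty vector replicate 2 or 3 or miR-372 replicate 2, and SQLE in the fit without empty vector replicate 2, while ELOVL6 was called in each.

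Among the 3 miRNAs with the shared seed, 0 of the 33 genes differed in any of the 3 direct comparisons. The share of all genes tested that differed was 0% for miR-372 against miR-302a, 0% for miR-373 against miR-302a and 0% for miR-373 against miR-372. No member had an unadjusted p below 0.05 in edgeR's test, and DESeq2's Wald test called 0 in each. The differences lay between -0.13 and 0.17, and the largest was that of ACAT2 between miR-372 and miR-302a (0.17 ± 0.15, 95% interval -0.14 to 0.48). For SQLE the interval of miR-373 against miR-372 was -0.28 to 0.083, and for ELOVL6 that of miR-372 against miR-302a was -0.056 to 0.27, so differences of those sizes could not be told from 0.

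**Figure D5:**
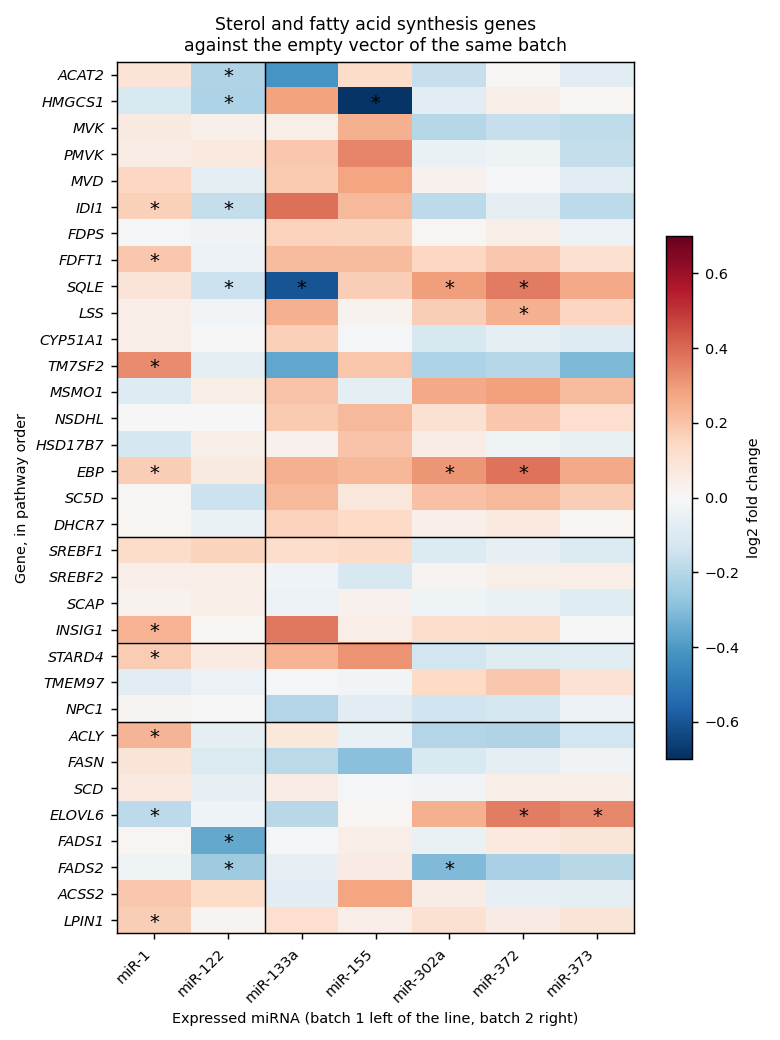
Log2 fold change of the 33 genes (rows, in pathway order, with lines between sterol enzymes, regulators, sterol handling and fatty acid enzymes) for each miRNA against the empty vector of its batch (columns). Red is higher, blue is lower, and an asterisk marks an adjusted p below 0.05 in edgeR's quasi-likelihood test. The darkest cells are HMGCS1 with miR-155 and SQLE with miR-133a.

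Of the 10 instances in which a member fell against an empty vector, 3 were members with an 8mer or 7mer-m8 for the expressed miRNA, namely ELOVL6 with miR-1, SQLE with miR-133a and HMGCS1 with miR-155. FADS1 with miR-122 held 7mer-A1 sites, and ACAT2, HMGCS1, IDI1, SQLE and FADS2 with miR-122 held none, as did FADS2 with miR-302a. The share of all falling genes that hold an 8mer or 7mer-m8 was not computed over these comparisons together. With miR-122, the falling genes with an annotated 3'UTR included 123 with an 8mer and 117 with a 7mer-m8 as best site. A further 105 had a 7mer-A1 as best site, and 225 had no site. The members that fell with miR-122 held no 8mer or 7mer-m8. Most members with these sites did not fall. Among members with an 8mer, 0 of 2 fell with miR-133a, and SC5D did not fall with the shared seed. With a 7mer-m8 as best site, 1 of 2 fell with miR-133a, 0 of 2 with miR-1 and 0 of 3 with miR-155. For the shared seed 0 of 6 fell with each miRNA, and ELOVL6 rose with miR-372 and miR-373. Over all genes tested with an annotated 3'UTR, 36.2% of genes with an 8mer fell with miR-1, 25.3% with miR-122, 27.5% with miR-133a, 29.4% with miR-155, 23.7% with miR-302a, 29.5% with miR-372 and 18.9% with miR-373. For genes with a 7mer-m8 as their best site the share was 26.7% with miR-1, 14.9% with miR-122, 12.9% with miR-133a and 14.2% with miR-155. It was 7.01% with miR-302a, 9.06% with miR-372 and 4.51% with miR-373. Of genes with a 7mer-A1 as their best site 4.96% fell with miR-122, and of genes without any site 2.3% fell. Among the 27 members without a miR-122 site, 5 fell, and the median of these 27 was -0.023, beside 0.010 over all genes without a site.

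The promoters of the members were searched from 250 bases before to 50 bases after the annotated start (RefSeq, GRCh38.p14), on both strands, and 30 of the 34 genes listed had a window. ACAT2, FASN, FDFT1 and SQLE had none. The sterol regulatory element, searched as TCACNCCAC, is bound by SREBP factors and was found in 1 of the 30 (3.33%), SREBF2, and in 1.39% of the genes with a window. The CCAAT box, searched as CCAAT, is bound by NF-Y, a common partner of SREBP, and was found in 22 of the 30 (73.3%) and in 39.7% of all. The E-box CACGTG was found in 4 of the 30 (13.3%), among them INSIG1 and LSS, and in 8.77% of all. The SREBF2 element is shown with the motif in capitals, and a match of letters says nothing of binding in these cells.
SREBF2, motif at chr22:41832972-41832980, plus strand, GRCh38.p14: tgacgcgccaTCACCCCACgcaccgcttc

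Other genes of sterol and lipid metabolism were taken from lists of textbook pathway members, and up to 2 genes with the largest change were named for each list and miRNA. Any further gene of these lists was named after its values were seen. The counts stand beside the shares of all genes tested that fell and rose, which were 13.7% and 10.8% with miR-1, 4.06% and 1.86% with miR-122, 3.97% and 1.37% with miR-133a, 4.81% and 2.82% with miR-155, 4.85% and 3.02% with miR-302a, 6.56% and 4.82% with miR-372, and 3.3% and 1.83% with miR-373. Of 10 other sterol and isoprenoid enzymes, 2 rose with miR-1, LBR, a sterol C14 reductase of the nuclear envelope (0.12 ± 0.037, adjusted p = 0.0245), and ACAT1, the mitochondrial thiolase (0.17 ± 0.046, adjusted p = 0.00971). The result of this list with miR-122 is not reported here. Of the 9 tested in batch 2, 0 passed in edgeR's test with any of the 5 miRNAs.

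Of 11 genes of SREBP processing and of sterol-dependent degradation, 4 fell with miR-1, where 13.7% of all genes fell, led by ERLIN1 (-0.26 ± 0.056) and ERLIN2 (-0.24 ± 0.042), which act in sterol-dependent degradation, and including MBTPS1 and MBTPS2, the proteases that cut SREBP. ERLIN1 rose with miR-122 (0.19 ± 0.055), for which the count over this list is not reported here. With miR-133a 2 fell (RNF145 at -0.29 ± 0.066 and MBTPS1 at -0.28 ± 0.077), with miR-155 1 fell (PAQR3 at -0.57 ± 0.069) and 1 rose (RNF145 at 0.32 ± 0.066), and with miR-302a 1 fell (MBTPS2 at -0.23 ± 0.063). With miR-372 and miR-373, 0 of the 11 passed.

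Of 13 tested genes of LXR signalling, sterol efflux, esterification and lysosomal handling, 2 fell with miR-1, LIPA, the lysosomal acid lipase (-0.36 ± 0.049), and ABCG1, a sterol exporter (-0.27 ± 0.093). With miR-122, 2 fell, NCEH1, a cholesteryl ester hydrolase (-0.54 ± 0.12), and SOAT1, which esterifies cholesterol (-0.34 ± 0.055), and GRAMD1A, a sterol carrier at membrane contacts, rose. NR1H3, the LXR alpha receptor, fell with miR-133a (-0.77 ± 0.16), NR1H2, LXR beta, rose with miR-155 (0.32 ± 0.089), and 0 passed with the other 3 miRNAs.

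Of 19 tested genes of fatty acid synthesis, elongation and activation outside the main list, 3 fell with miR-1, led by SLC25A1, the mitochondrial citrate carrier that supplies ACLY (-0.57 ± 0.044, adjusted p = 1.3e-08), and ELOVL2 (-0.44 ± 0.054). With miR-122, 1 fell (ACSL3 at -0.16 ± 0.043) and 1 rose (ME1 at 0.16 ± 0.044), and with miR-155, 1 fell (ELOVL2 at -0.50 ± 0.066). SCD5, the second stearoyl-CoA desaturase, fell with miR-302a (-0.47 ± 0.11), miR-372 (-0.87 ± 0.12) and miR-373 (-0.88 ± 0.11), among 3, 3 and 2 that fell and 1, 1 and 0 that rose. With miR-133a, 0 passed. SCD itself did not pass with any of the 7 miRNAs against the empty vector.

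Of 14 genes of glycerolipid synthesis, 1 fell and 3 rose with miR-1, 1 fell with miR-122, 1 fell and 2 rose with miR-133a, and 0 passed with miR-155. With miR-302a, miR-372 and miR-373, 2, 2 and 1 rose, and CHKA, choline kinase alpha, was among them each time (0.47 ± 0.082, 0.51 ± 0.082 and 0.42 ± 0.081). Of 19 genes of fatty acid oxidation, 6 rose and 0 fell with miR-1, where 10.8% of all genes rose and 13.7% fell, led by ACADVL (0.26 ± 0.042) and ACADS (0.25 ± 0.087), which open the oxidation cycle on long and short chains. With miR-122, 2 rose (HADH at 0.21 ± 0.050 and ACADVL at 0.21 ± 0.043), and with miR-155, 1 rose. CPT1A, which admits fatty acids to mitochondria, fell with miR-302a (-0.45 ± 0.13) and miR-372 (-0.48 ± 0.13), 2 others rose with miR-372, and 0 passed with miR-133a or miR-373.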

How the data were processed

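RNA-seq libraries of 24 cultures (9 groups, 2 batches) were analysed. The authors deposited, for each batch, exon read counts per gene with the gene's exon length. Per the submitters' processing notes and the study's methods, reads were aligned to hg19 with TopHat2 2.1.1 and counted by strand with featureCounts, and edgeR 3.24.3 was used for testing. The authors' tables per miRNA, which hold fold changes, mean log2 CPM, p-values and q-values, were not used, and 0 columns of single libraries were left unused.

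Of 29794 genes, 28543 matched a symbol. Counts were tested per batch with edgeR 4.0.16 in R 4.3.3 after filterByExpr (minimum count 10), with TMM scaling, the quasi-likelihood test (glmQLFit and glmQLFTest) over all groups of a batch, and Benjamini-Hochberg adjustment over all genes tested. The SE is the size of the log2 fold change divided by the square root of F, the prior count was 0.125, and 95% intervals use the t quantile at the fit's degrees of freedom. The scripts were tested on simulated data. Some results of the additional gene lists and 1 site sequence are not reported here. Libraries of a group differed by more than counting noise, the chi-square divided by its degrees of freedom being 1.79 to 33.6, and each was counted as 1 replicate. Precision is limited by 2 or 3 cultures per group.

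The members, lists and tests were chosen with earlier results of these data known. Genes named are SREBF1, SREBF2, SCAP and INSIG1, the 6 called members with the largest change in each comparison, and members with an 8mer, and others are said to be named after their values were seen or were named for a site they hold. Alternatives were DESeq2 1.42.0 (size factors or its Wald test), no filter, more than 1 CPM in every library, a block for replicate number, a fit to the 2 groups of a comparison alone, each library left out, and 8mer and 7mer-m8 sites alone. Same-numbered libraries deviated together (every correlation above 0.1) for miR-155 with miR-133a (0.183, 0.345 and 0.198) and for miR-372 with miR-302a (0.227, 0.336 and 0.161), so the numbers were taken to pair those groups only. The pairing comes from these correlations, not from the labels. For miR-373 they were 0.0217, 0.575 and 0.386 with miR-302a and 0.0557, 0.356 and 0.505 with miR-372, which this rule left out.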

Additional observations from a re-analysis of the deposited data

Results flagged for a closer look

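The genes given here differed between 2 miRNAs of the same batch by a direct test of that difference (edgeR's quasi-likelihood test with Benjamini-Hochberg adjustment over all genes). Between miR-122 and miR-1, 14 genes were lower with miR-122. Among sterol enzymes the log2 differences were -0.40 for TM7SF2, -0.33 for IDI1, -0.30 for ACAT2, -0.24 for SQLE, -0.23 for FDFT1, -0.22 for MVD, which makes isopentenyl diphosphate, and -0.16 for SC5D. Among the enzymes of fatty acid and lipid synthesis they were -0.37 for FADS1, -0.30 for ACLY, -0.22 for FADS2, -0.19 for FASN, -0.16 for LPIN1 and -0.13 for SCD. INSIG1 had -0.22. ELOVL6 was higher, at 0.16.

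Between miR-155 and miR-133a, HMGCS1 was lower with miR-155 at -0.97, and SQLE (0.78), TM7SF2 (0.56) and ACAT2 (0.54) were higher. Groups of 2 or 3 libraries were not tested for single outlying libraries gene by gene.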

How the results depend on the processing

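Of 218 recomputed counts of members, 167 stayed within 1.5 times the reported count and 51 did not, and of 80 recomputed medians 1 moved. Of 718 recomputed fold changes of named members, 628 changed neither sign nor call, 55 lost the call, 9 gained one and 26 changed sign. The cause was not tested in any case. With DESeq2's Wald test, 0 members fell and 5 rose with miR-1, 2 fell and 2 rose with miR-133a, 1 rose with miR-155 and 2 with miR-373. With no filter on low counts, 2 fell and 2 rose with miR-133a, and 1 rose with miR-155 and 1 with miR-302a. With more than 1 CPM in every library, 2 fell with miR-133a. With only the 2 groups compared, 3 fell and 7 rose with miR-133a, 0 fell and 1 rose with miR-302a, and 2 rose with miR-373.

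With the replicate number as a block, 3 fell and 5 rose with miR-133a, 1 rose with miR-155 and 1 fell with miR-372. With miR-373, 1 fell and 2 rose, and 7 members differed between miR-155 and miR-133a, where the numbers were taken to pair the libraries. Against the empty vectors the correlations of same-numbered libraries over all genes ran from -0.19 to 0.22, and no group had all of them above 0.1. Those groups were therefore not taken as paired, although some members followed the replicate number in all 6 groups of batch 2. For miR-372 against miR-302a, the other comparison taken as paired, the count was 0 with the block as without it.

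With 1 library left out at a time, the count that fell was 0 to 1 with miR-1, 1 to 7 with miR-122 and 0 to 2 with miR-302a. The count that rose was 4 to 11 with miR-1, 0 to 1 with miR-122, miR-133a and miR-155, 0 to 3 with miR-302a, 1 to 3 with miR-372 and 0 to 0 with miR-373, and 9 to 12 members differed between miR-122 and miR-1. The median with miR-1 was 0.047 to 0.077. Restricted to 8mer and 7mer-m8 sites, 0 members held a site for miR-122, 3 held one for miR-1 and 4 for miR-133a.

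The changes of sign were all in regulators that were not called. With a library left out, the range was -0.0054 to 0.062 for SCAP with miR-1, -0.013 to 0.049 for INSIG1 with miR-122, -0.081 to 0.016 for SREBF2 with miR-133a, -0.017 to 0.064 for SCAP with miR-155, -0.049 to 0.12 for INSIG1 with miR-155, -0.041 to 0.10 for SREBF2 with miR-302a, -0.076 to 0.0043 for SCAP with miR-302a, -0.030 to 0.30 for INSIG1 with miR-302a, -0.066 to 0.13 for SREBF2 with miR-372, -0.056 to 0.11 for SREBF2 with miR-373 and -0.11 to 0.11 for INSIG1 with miR-373. INSIG1 with miR-373, at -0.00089, was 0.0051 with DESeq2 size factors, 0.0043 with its Wald test, 0.0037 with no filter and 0.0011 with only the 2 groups compared.

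Batch 1 has 2 libraries per group, and leaving one out leaves a group with a single library, whose spread is taken from the others.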
